A study of Mus musculus with 2 samples.

Results

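The 36 genes described here encode aminoacyl tRNA synthetases, the enzymes that load each amino acid onto its tRNA. They were chosen by gene symbol from the 47644 genes of the deposited table, 1 row for each symbol. By where the enzyme works they form 18 cytosolic enzymes, 16 mitochondrial enzymes and 2 enzymes, Gars and Kars, that serve both compartments. The set was selected on values of the same OIR and control contrast, the read counts and FPKM of Lars2 in view, so every value below describes these libraries and tests nothing. RNA of whole eyeballs of C57BL/6 mice was sequenced in 1 control sample and in 1 OIR sample, the mouse model of retinopathy after high oxygen. In the OIR group, mice of day 7 spent 5 days in high oxygen and then lived in room air until their eyes were taken at day 17. For the control group the labels give the disease state control, the strain and the tissue. They name no treatment and no collection day for that group, so a difference in age cannot be told apart from the model. The eyes or animals pooled in a sample, if any, were not given in the sources used here. With 1 library a group no difference has a replicate check.

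Synthetases attach amino acids to tRNAs before the ribosome can use them. Mitochondria have their own ribosomes and tRNAs, and the mitochondrial synthetases are encoded by nuclear genes and imported. Several cytosolic enzymes are held together in the multisynthetase complex. The transcription factor ATF4, which is made when amino acids run short or proteins misfold, activates many cytosolic synthetase genes. The retina renews photoreceptor outer segments throughout life and is rich in mitochondria, and inherited defects of single synthetases are known to impair hearing or sight, LARS2 in Perrault syndrome and HARS in a form of Usher syndrome.

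Gene counts summed to 20378793 reads in the OIR library and 15741235 in the control library. All 36 synthetase genes had an FPKM (reads scaled by transcript length and library total) of at least 1 in both libraries, with 100 to 8282 reads each. Defining markers of the eye were present in both: all 7 rod photoreceptor markers and 7 of 8 lens markers reached an FPKM of 1. The median differences of the marker lists, OIR minus control on the log2(FPKM + 1) scale, ran from -0.49 for lens and -0.43 for Müller glia through -0.03 for rods to 0.94 for endothelium, 1.29 for corneal and conjunctival epithelium and 1.39 for erythrocytes. The part of this tissue makeup in the synthetase values was not tested, and in bulk samples fewer cells of a type and less RNA per cell cannot be told apart.

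Lars2, the gene of the mitochondrial leucyl tRNA synthetase, had 8282 reads in the OIR library and 406 in the control. Its FPKM was 104.7 in OIR against 6.65 in the control. The OIR library was thus the high one, and Lars2 went from the middle of the mitochondrial enzymes in the control to the highest level of any synthetase gene in OIR. The difference was 3.79 on the log2(FPKM + 1) scale, and the ratio of read shares (reads of the gene over all reads of its library) was 15.8, with an exact conditional 95% interval of 14.3 to 17.5. Such intervals cover counting error only, since reads may be copies of 1 molecule and the spread between animals is unknown. The gene lies on chromosome 9 from 123366940 to 123462664 on the plus strand (mm10, ENSMUSG00000035202), and no other gene's span in the table overlaps it. Among the 15883 genes that reached an FPKM of 1 in either library, called tested genes here, its difference ranked 9, and 0.0567% of tested genes had a difference of at least that size.

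**Figure D1:**
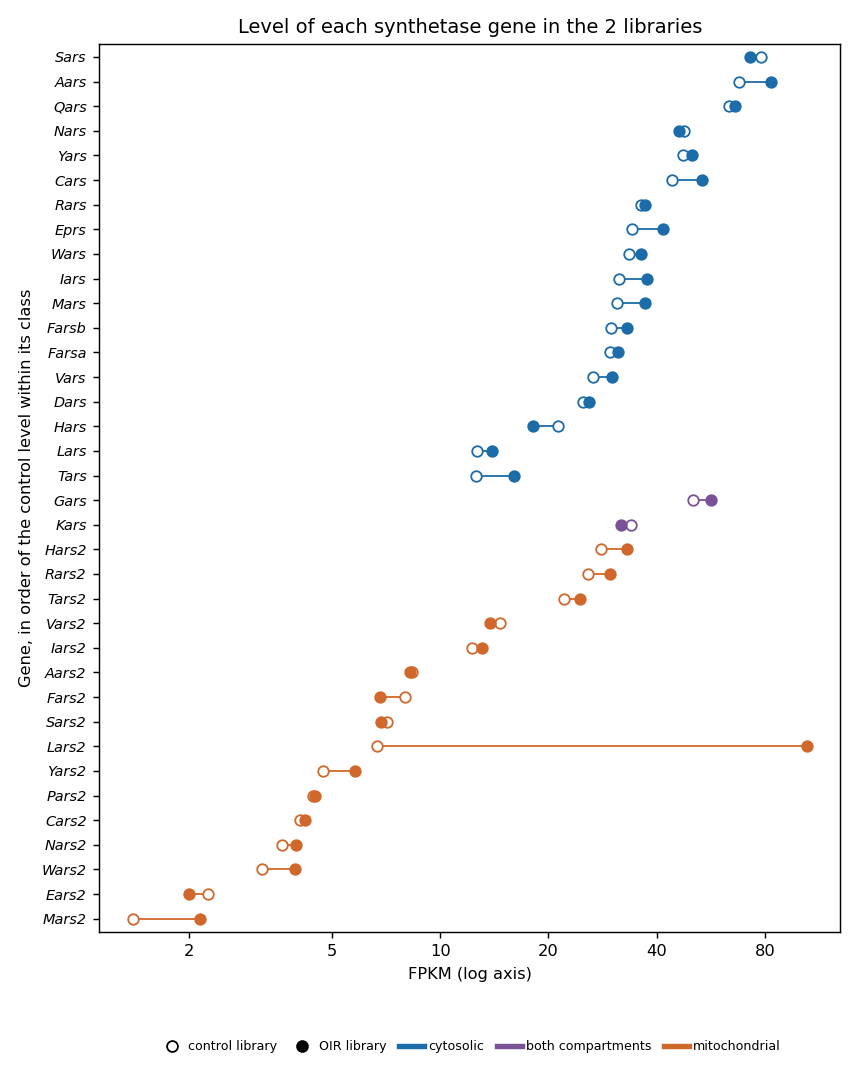
FPKM of each synthetase gene (log axis) in the control library (open circles) and the OIR library (filled circles), 1 library each, ordered by control level within the cytosolic, both-compartment and mitochondrial classes. Lars2 goes from 6.65 to 104.7 FPKM, and the circles of the other 35 genes lie close together.

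In the authors' deposited table, which compares 1 library with 1 library, Lars2 has a log2 fold change of 3.84 and an adjusted p of 1.97e-83. It is the 1 synthetase gene marked as changed among 95 genes marked up and 7 marked down in the authors' deposited table. The lowest adjusted p of the other 35 in the authors' deposited table is 0.995.

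Lars2 made up 58.7% (exact binomial 95% interval 57.9 to 59.5%) of the 14110 reads of the mitochondrial synthetases in OIR. In the control it made up 8.94% (8.12 to 9.80%) of 4543 reads. The other 15 mitochondrial enzymes together had a ratio of read shares of 1.09 (1.05 to 1.13), so the larger sum in OIR came mostly from this 1 gene.

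Genes of ribosomal RNA, which form the core of the ribosome and encode no protein, were 3 of the 8 genes above Lars2 in the ranking. The other 5 were Gm23935, typed as a microRNA gene and ranked 1, and the protein genes Edn2, Hsp90aa1, Tnnt2 and Bcl3. The next gene below Lars2, Prss56, is also a protein gene (all named after their values were seen). The mitochondrial large-subunit rRNA gene mt-Rnr2 had 10696 reads in OIR against 520 in the control, a ratio of 15.9 (14.5 to 17.4). The small-subunit gene mt-Rnr1 had 5045 and 258 reads, a ratio of 15.1 (13.3 to 17.2). Both intervals overlap that of Lars2. CT010467.1, a nuclear rRNA gene on chromosome 17 chosen after its values were seen, had 15324 and 377 reads and a ratio of 31.4 (28.3 to 34.9), outside that interval. All rRNA genes together took 0.158% (0.156 to 0.159%) of the reads in OIR and 0.00811% (0.00767 to 0.00857%) in the control. The part of this rRNA difference in the Lars2 value was not tested.

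**Figure D2:**
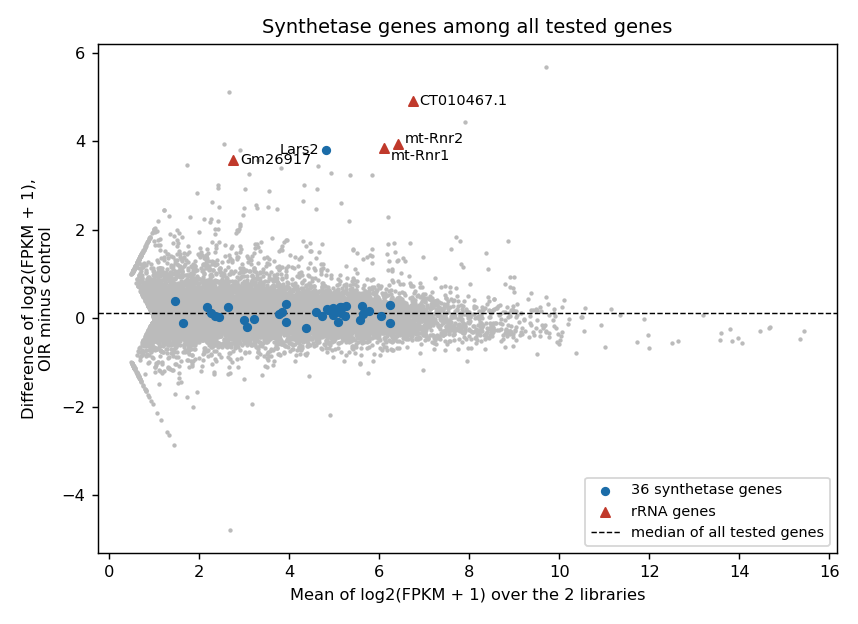
Difference of log2(FPKM + 1), OIR minus control, against the mean of both libraries for the 15883 tested genes (grey), the 36 synthetase genes (blue) and the 4 highest genes of rRNA loci (red triangles). Lars2 at 3.79 lies beside mt-Rnr2 and mt-Rnr1, and the other synthetases lie around the dashed line at 0.11, the median of all tested genes.

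The reference was searched for letters that Lars2 shares with those genes. The 9 Lars2 transcripts of GENCODE M21 had 0 matches, at an E value of 0.001, to 8 transcripts of the mitochondrial rRNA genes and of the nuclear rRNA locus on chromosome 17; the whole nuclear large-subunit rRNA was not used here. Against all transcripts, the main 3894-base transcript matched 8 other genes at an E value of 1e-05. The closest match by identity spanned 72 bases at 98.6% identity to Gm15564, inside the 3′ UTR of the last exon (chromosome 9, 123462048 to 123462119). Gm15564 had 1 read in OIR against 0 in the control. AA474408 matched an overlapping stretch over 196 aligned bases at 80.1% identity and had 33 and 27 reads. Reads are given per gene in the table, so where along Lars2 they fell was not analysed here.

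The stretch of 250 bases before the RefSeq start of Lars2 is shown because this gene carries the largest difference of the family (chr9:123366677-123366926, plus strand, GRCm38.p6). Capitals mark GGGCGG, the GC box bound by SP1-type factors, a motif chosen after the values were seen.

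Lars2: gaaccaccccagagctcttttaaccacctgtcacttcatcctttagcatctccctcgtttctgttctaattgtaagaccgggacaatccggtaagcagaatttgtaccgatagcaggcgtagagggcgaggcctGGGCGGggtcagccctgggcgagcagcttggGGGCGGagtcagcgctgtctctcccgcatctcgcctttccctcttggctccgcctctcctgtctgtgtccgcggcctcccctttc

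The stretch holds 2 GC boxes, and its GC content is 59.2%, against a median of 52.4% over all RefSeq promoters. Searched on both strands over 250 bases before to 50 after the start, GGGCGG was present for 19 of the 27 synthetase genes matched to a RefSeq promoter and in 35.7% of all promoters. ACGTG or GCGTG, the core letters bound by hypoxia-inducible factors, was found for 24 of the 27. Of all genes with promoters 46.7% held it, and of all promoters 43.8%. These shares are not matched for GC content. Lars2, Aars2 and Tars2 are the 3 matched genes without these letters in the window. A match is a run of letters and no evidence of binding, and its absence says nothing of the factor.

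The other 35 synthetase genes lay close to the bulk of the transcriptome. Their differences ran from -0.22 to 0.39, with a median of 0.10, and the median of all tested genes was 0.11. Of the 35, 16 lay above that median and 19 below. A difference of at least 1.5-fold higher was reached by 1 of the 36 genes, Lars2, where 9.11% of tested genes reached it. At least 1.5-fold lower was reached by 0 of 36, where 2.58% of tested genes did. The counting interval of the ratio lay above 1 for 13 genes (36.7% of tested genes), below 1 for 2, Hars and Sars (14.7%), and held 1 for 21. The median ratio over all tested genes was 1.09, so an interval above 1 does not place a gene above the typical one. The scaling factors in the authors' table move every log2 ratio by -0.14 and the all-gene median to -0.0101, and rescaling to TPM moves that median to 0.20. With them the count of the 35 genes above 0 went from 26 to 15 and to 31. The sign of a difference near 0 therefore depends on the scale, and values are best read against the all-gene median.

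**Figure D3:**
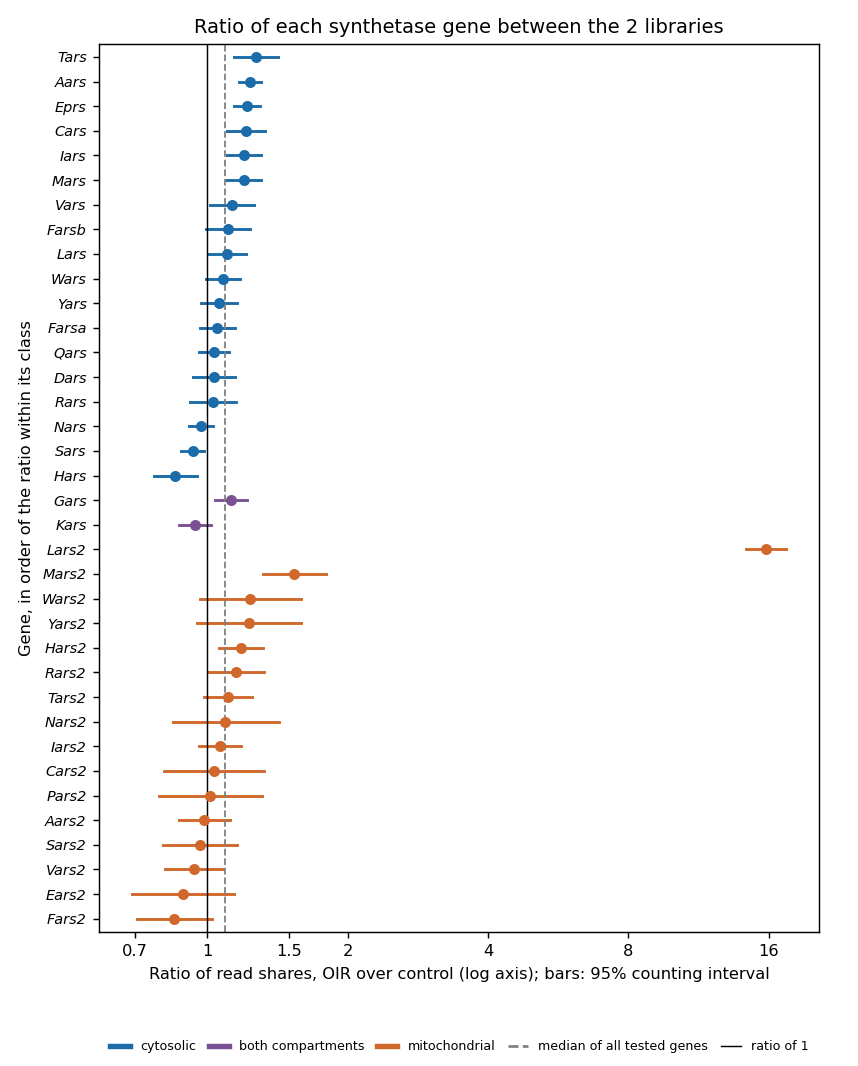
Ratio of read shares, OIR over control (log axis), for each of the 36 genes, ordered within its class, with exact 95% counting intervals as bars. The dashed line marks the median ratio of all tested genes, 1.09, and Lars2 at 15.8 stands far to the right.

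Of the mitochondrial enzymes after Lars2, Mars2 differed most. Mars2, the methionyl enzyme of mitochondria (chromosome 1, 55237177 to 55248470, ENSMUSG00000046994), had 494 reads in OIR against 248 in the control, at 2.15 and 1.39 FPKM. OIR was the higher library, with a ratio of 1.54 (1.32 to 1.80), and the difference of 0.39 is held down by the pseudocount of 1. On the ratio alone Mars2 would join Lars2 above 1.5-fold. By the sum of both libraries its FPKM was the lowest of the family, for a listed length of 11294 bases that equals its whole genomic span.

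At the low end of this class, the phenylalanyl enzyme gene Fars2 had 250 reads in OIR against 227 in the control, at 6.78 and 7.97 FPKM. Its ratio was 0.851 (0.708 to 1.02), and the interval held 1. Ears2, for glutamate, stood at a ratio of 0.888 (0.690 to 1.14) with 138 and 120 reads. With so few reads, differences of this size were not detectable.

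The remaining 12 mitochondrial genes lay between -0.09 for Vars2 and 0.25 for Yars2. Hars2, for histidine, had 867 and 566 reads and a ratio of 1.18 (1.06 to 1.32). Rars2, for arginine, had 523 and 350 reads and a ratio of 1.15 (1.01 to 1.33). These intervals hold the median ratio of all tested genes. Yars2 and Wars2, for tyrosine and tryptophan, had ratios of 1.23 and 1.24, with intervals that held 1, from 100 to 173 reads a library. Over the 16 mitochondrial genes 7 lay above the all-gene median and 9 below.

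Tars, the cytosolic threonyl enzyme, had the highest difference of the cytosolic class. It had 861 reads in OIR against 523 in the control, at 16.0 and 12.6 FPKM, a difference of 0.32 and a ratio of 1.27 (1.14 to 1.42). Aars, the alanyl enzyme, with the highest FPKM of the class summed over both libraries, had 3586 and 2244 reads, at 83.5 and 67.6 FPKM. Its ratio of 1.23 (1.17 to 1.30) lay above the all-gene ratio over its whole interval.

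Eprs, which carries the glutamyl and the prolyl activity in 1 protein, had 41.7 and 34.2 FPKM and a ratio of 1.22 (1.14 to 1.30). Cars, for cysteine, had a ratio of 1.21 (1.10 to 1.33). Iars and Mars, for isoleucine and methionine, had 1.20 each, with the same interval of 1.10 to 1.31. These 6 of the 18 cytosolic genes (Tars, Aars, Eprs, Cars, Iars and Mars) had counting intervals above 1.09, the median ratio of all tested genes. With Lars2 and Mars2 that made 8 of the 36 synthetase genes, where 24.1% of tested genes had such an interval.

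At the low end stood Hars, the cytosolic histidyl enzyme, with 734 reads in OIR against 664 in the control. Its FPKM was 18.1 and 21.2, its difference -0.22 and its ratio 0.854 (0.768 to 0.950). Hars and Hars2 went apart in sign, the cytosolic gene lower and the mitochondrial gene higher in OIR. The interval of Hars2 (1.06 to 1.32) holds the all-gene ratio of 1.09, and that of Hars lies below it. The 2 genes are neighbours on opposite strands of chromosome 18 whose spans share 198 bases. The sources used here do not say whether strand was used in counting, so reads in the shared stretch are uncertain.

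Sars, the seryl enzyme, stood at 72.6 and 78.0 FPKM, a ratio of 0.931 (0.879 to 0.986). Lars, the cytosolic counterpart of Lars2 with the lowest FPKM of the class summed over both libraries, had 1095 and 768 reads. Its FPKM was 13.9 in OIR against 12.7 in the control, and its ratio of 1.10 (1.00 to 1.21) matched the typical gene. The large difference of the leucine enzymes was thus seen for the mitochondrial gene and not for the cytosolic one.

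The remaining 9 cytosolic genes, with Nars lowest at -0.04 and Vars highest at 0.17, lay between these. Farsa and Farsb, which encode the subunits of the 1 cytosolic phenylalanyl enzyme, had differences of 0.07 and 0.15. Of the genes that serve both compartments, Gars (glycine) had 1528 and 1050 reads, at 56.7 and 50.4 FPKM and a ratio of 1.12 (1.04 to 1.22). Kars (lysine) had 1376 and 1129 reads, at 31.9 and 33.9 FPKM and a ratio of 0.941 (0.870 to 1.02).

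As classes, the cytosolic and mitochondrial enzymes differed little in their median differences. The median was 0.12 over the 18 cytosolic genes and 0.09 over the 16 mitochondrial genes, a gap of -0.03. Without Lars2 the mitochondrial median was 0.09 over 15 genes. Taken by means, the gap was 0.19 with the opposite sign, 0.31 for the mitochondrial against 0.12 for the cytosolic genes, and Lars2 made that turn: the mean of the other 15 was 0.08. By summed reads, the ratio was 1.09 (1.07 to 1.11) for the 18 cytosolic genes and 1.09 (1.05 to 1.13) for the 15 mitochondrial genes without Lars2. With the authors' factors the cytosolic median was -0.013, near the -0.0101 of all tested genes. Lars2 stood 3.69 above the median of the other 35.

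In level the classes did differ. The median FPKM was 37.2 in OIR against 32.4 in the control for the cytosolic enzymes, and 6.81 and 6.87 for the mitochondrial ones. For 27 of the 36 genes the length that count and FPKM imply is not the gene length in the authors' table (by more than 1 base), so levels between genes were also taken per listed length. The medians were then 19.7 and 17.8 for the cytosolic and 5.22 and 5.81 for the mitochondrial class. The order of the classes was the same by both lengths, and the gap was smaller by the listed one. Ranks within a class did turn: per listed length Nars was the highest and Vars the lowest cytosolic gene, in place of Aars and Lars, and Ears2 lay below Mars2. Lars2 was the highest of all 36 in OIR by both lengths.

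Within the 16 pairs of a cytosolic and a mitochondrial enzyme for 1 amino acid (Eprs serving in 2 of them), the cytosolic gene had the higher FPKM in 14 in the control and 13 in OIR. The leucine pair made this change: Lars over Lars2 was 1.90 in the control and 0.133 in OIR. The exceptions in both libraries were histidine, with Hars over Hars2 at 0.759 in the control and 0.548 in OIR, and threonine, with Tars over Tars2 at 0.570 and 0.654. Per listed length neither was an exception: histidine stood at 1.97 and 1.42, threonine at 1.52 and 1.74. The cytosolic gene was then higher in 16 pairs in the control and in 15 in OIR, all but leucine. The leucine values did not depend on this choice, since the implied length of Lars and that of Lars2 equal the listed ones.

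The highest FPKM ratio in the control was that of methionine, with Mars over Mars2 at 22.2, and in OIR that of glutamate, with Eprs over Ears2 at 20.9. Per listed length this order turned: asparagine, with Nars over Nars2, was highest in both libraries, at 27.6 in the control and 24.4 in OIR. Outside leucine, the mitochondrial difference minus the cytosolic one ran from -0.39 for glutamate to 0.45 for histidine. It was positive in 7 pairs and negative in 8.

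**Figure D4:**
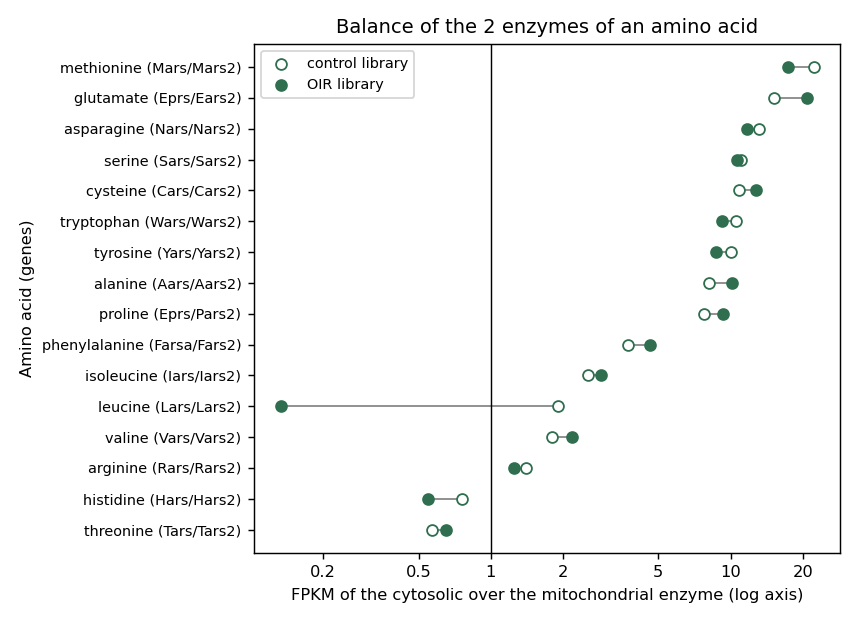
FPKM of the cytosolic over the mitochondrial enzyme of each amino acid (log axis) in the control library (open) and the OIR library (filled), as deposited. Leucine crosses the line at 1, from 1.90 to 0.133, and no other pair crosses it.

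Among the cytosolic and both-compartment genes, 12 are in a list of synthetases commonly described as ATF4 targets. Their median difference was 0.21, and 8 of the 12 lay above the all-gene median (50.0% of tested genes do). The 8 genes outside that list had a median of 0.05, with 2 above. The 6 cytosolic genes with intervals above 1.09 are all in the list, as are Sars at -0.10 and Nars at -0.04. The mitochondrial genes Lars2 and Mars2 also had such intervals and are not in the list. Of all tested genes 24.1% had one. With the authors' factors the median of the 12 was 0.07, where that of all tested genes was -0.0101. These lists were drawn up with earlier results known, and the difference between them has no test.

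The letters TGATGNAA, the composite element bound by C/EBP and ATF proteins together, were searched on both strands from 250 bases before to 50 after the RefSeq starts. Of the 27 synthetase genes matched to a promoter, 5 held them, against 4.51% of 27025 genes with promoters and 3.97% of 32851 promoters. These 5 (Aars, Gars, Iars, Tars and Yars) are among the 8 matched genes of the ATF4 list. The 30-base stretches below show 1 site of each gene in the direction of the gene, with the motif or its reverse complement in capitals. They lie on GRCm38.p6 at chr8:111033840-111033869 for Aars, chr6:55037960-55037989 for Gars, chr13:49682126-49682155 for Iars, chr15:11399655-11399684 for Tars (minus strand) and chr4:129189895-129189924 for Yars, the others on the plus strand.

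Aars: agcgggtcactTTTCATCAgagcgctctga
Gars: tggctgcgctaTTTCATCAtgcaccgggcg
Iars: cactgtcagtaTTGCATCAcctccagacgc
Tars: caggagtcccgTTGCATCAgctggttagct
Yars: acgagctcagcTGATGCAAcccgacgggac

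The capitals begin at position 10 from the start of Aars, at -30 for Gars, 8 for Iars, -15 for Tars and 4 for Yars. Another site of Aars, not shown, begins at -112. Aars, Iars and Tars, with ratios of 1.23, 1.20 and 1.27, carry the letters. So do Gars, with a ratio of 1.12 (1.04 to 1.22), and Yars, with 1.06 (0.971 to 1.16). The intervals of Gars and Yars hold the all-gene ratio of 1.09. Mars and Eprs, with ratios of 1.20 and 1.22, are matched and do not hold them in this window. Cars is among the 9 genes with no promoter matched. A match is a description of the letters, with no measure of binding in these samples.

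Genes of the integrated stress response, the pathway through which eIF2 kinases raise ATF4, were mixed in direction. Of the 13 listed, 9 lay above the all-gene median (50.0% of tested genes do) and 4 below. Only RNA was measured, so the activity of the pathway was not tested. Atf4 itself stood at 127 FPKM in both libraries (4465 and 3449 reads), a ratio of 1.00 (0.956 to 1.05). Over the 13 genes of the list the median was 0.26, with 3 at least 1.5-fold higher and 1 lower (9.11% and 2.58% of all tested genes). Cebpb, a C/EBP factor that pairs with ATF4, had 100 and 25 reads and a ratio of 3.09 (1.98 to 5.00). Eif2ak2, the kinase PKR that senses double-stranded RNA, had a ratio of 1.78 (1.41 to 2.26). Nupr1, a stress-induced chromatin protein, was the lowest, at 177 FPKM in OIR against 347 in the control, a ratio of 0.511 (0.488 to 0.535).

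The 24 genes of amino acid synthesis, transport and stress that are listed as ATF4 targets had a median of 0.25. Of them 6 (25.0%) were at least 1.5-fold higher and 0 lower, where 9.11% and 2.58% of all tested genes were. Of the 12 listed synthetases 0 reached either. Stc2, which encodes the secreted stanniocalcin 2, had 364 and 70 reads and a ratio of 4.02 (3.10 to 5.26). Chac1, a glutathione-degrading enzyme, had 154 and 36 reads and a ratio of 3.30 (2.29 to 4.89). Slc6a9, the glycine transporter GLYT1, and the serine synthesis enzyme gene Psat1 were lower, with ratios of 0.741 (0.687 to 0.798) and 0.766 (0.697 to 0.843). The list was mixed in direction, with 16 genes above the all-gene median and 8 below.

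**Figure D5:**
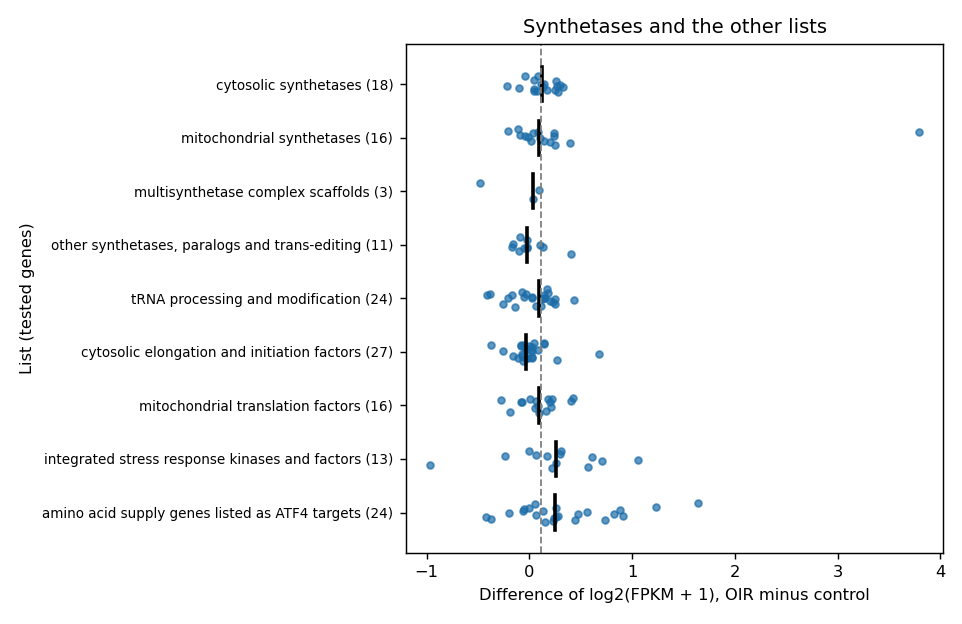
Difference of log2(FPKM + 1), OIR minus control, for each tested gene of the cytosolic and mitochondrial synthetase classes and of 7 protein gene lists (the rRNA genes are not plotted), with the median of each list as a black bar and the median of all tested genes, 0.11, as a dashed line. Lars2 at 3.79 lies apart from every other gene plotted, and the medians of the stress response and amino acid supply lists, 0.26 and 0.25, lie to the right of the line.

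Partners of the synthetases lay near the all-gene median with few exceptions. The 8 enzymes of the multisynthetase complex had a median of 0.09 and the other 12 cytosolic and both-compartment enzymes 0.13. Of its scaffold proteins, Aimp1 and Aimp2 had differences of 0.04 and 0.10. Eef1e1, the smallest scaffold, had 347 and 380 reads, 16.5 FPKM in OIR against 23.4 in the control, and a ratio of 0.705 (0.608 to 0.818). It was the lowest of the complex. By catalytic fold, the 17 class I genes without Lars2 had a median of 0.13 and the 17 class II genes 0.05. Eprs, with its glutamyl and prolyl activities and a difference of 0.28, is in neither of these lists.

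The further synthetases, paralogs and trans-editing factors had a median of -0.03 over 11 tested genes. The lowest was Pstk, the kinase that acts on seryl tRNA on the way to selenocysteine, with 362 and 316 reads and a ratio of 0.885 (0.759 to 1.03), an interval that held 1. The 24 tested tRNA processing genes had a median of 0.09 and none reached 1.5-fold. Xpot, the exporter of tRNA from the nucleus, was highest at 0.43, with a ratio of 1.40 (1.27 to 1.53), and Pop4, a subunit of RNase P, lowest at -0.41, with a ratio of 0.743 (0.651 to 0.847).

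The 16 tested mitochondrial translation factors had a median of 0.09 and none reached 1.5-fold in either direction. Mtrf1l, a release factor, and Gfm2, which recycles mitochondrial ribosomes, were highest at 0.42 and 0.41. So the large Lars2 difference had no counterpart of its size among the protein genes listed for mitochondrial translation. The 27 cytosolic initiation and elongation factors had a median of -0.03, with 23 below the all-gene median. Eif4ebp1, a repressor of cap-dependent initiation, was the 1 gene of the list at least 1.5-fold higher, with 223 and 102 reads and a ratio of 1.69 (1.33 to 2.16). Eef1a2, an elongation factor of neurons and muscle, was the lowest, with a ratio of 0.769 (0.735 to 0.804).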

How the data were processed

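Whole-eyeball RNA of 1 control and 1 OIR sample was sequenced. Per the submitters' processing notes, the build mm10 and the tools TopHat2 2.0.12, Bowtie2 2.2.3 and HTSeq 0.6.1 were used; settings, annotation release and strand use: not given in the sources used here. The deposited table gives each gene's read count and FPKM in both libraries, per the file headers. A further signal, the count over a library factor set by the authors, served only to read off that factor. The log2 fold change, p-value and gene length columns are the authors' own, from a tool that the labels and headers do not name.

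The members and lists were chosen with earlier results of these data known. After 5 broken lines were dropped, each gene was compared as log2(FPKM + 1), OIR minus control, over the 15883 genes with FPKM of at least 1 in either library. With 1 library per group no p-value was computed, and calls go by size (1.5-fold). Ratios of read shares have exact conditional 95% intervals (Clopper-Pearson), checked on simulated counts. In full, values are given for Lars2, every gene called, and the extremes of difference and level in each class; from each other list the 2 highest and 2 lowest may be named. Atf4 and the other members' ratios were named beyond this rule, after their values were seen. rRNA genes are those so typed in GENCODE M21 plus the nuclear rRNA locus of chromosome 17, 62 with reads. The list names Rn45s, Rn18s-rs5 and n-R5s matched no symbol. Spans of 18 of the 36 genes overlap another gene, Mars with Ddit3 and Iars2 with Rab3gap2 among them, so their reads are uncertain there. Promoter sequences are RefSeq's on GRCm38.p6, and transcripts were compared with blastn 2.17.0; protein sequences were not used here. Some results are not reported here. Python 3.11.15, pandas 2.3.3, numpy 2.4.6 and scipy 1.17.1 were used.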

Additional observations from a re-analysis of the deposited data

How the results depend on the processing

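The 7 main results (the 1.5-fold counts, the class medians and their difference, and the Lars2 values) were recomputed with other pseudocounts, filters, scalings, thresholds and list summaries. Of these values 67 stayed within the counting error or within 1.5 times the count and 10 moved. None that was past 1.5-fold changed sign, but 4 values near 0 did. With the authors' factors the cytosolic median became -0.013 and the mitochondrial median -0.025. Centred on all tested genes the mitochondrial median became -0.017, and by means the mitochondrial minus cytosolic gap became 0.19. All of these but the cytosolic median are counted among the 67, so that count does not mean that a sign held. Members at least 1.5-fold higher numbered 2 with a pseudocount of 0.1, a pseudocount of 0.01, CPM in place of FPKM, or a call on the ratio, since Mars2 then joins Lars2, and 3 with the call lowered to a difference of 0.32. The Lars2 difference was 3.96 and 3.98 with pseudocounts of 0.1 and 0.01, and 3.84 and 3.86 above the median of the other members, since a pseudocount shrinks the difference of a gene at low FPKM. An FPKM filter of 5 left 30 of the 36 genes. Levels per listed gene length, an alternative chosen after the data were seen, gave 16 and 15 pairs with the higher cytosolic gene in control and OIR, in place of 14 and 13. No paired analysis was possible because each group is 1 library, and for the same reason no library could be left out. Depth limits the mitochondrial genes most: with 100 to 250 reads, differences whose interval holds 1 were not detectable.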
